A study of Mus musculus with 36 samples.

Results

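The hippocampus (HIP) and the nucleus accumbens (NAc) of vehicle-treated mice were compared on 6 of the 36 arrays of the series, 3 per region. The arrays were taken by their labels as vehicle HIP and vehicle NAc, and each HIP array was paired with the NAc array made from the same mice. Whole-genome expression was measured with Illumina MouseWG-6 BeadChips on total RNA from dissected tissue. The labels give all mice as male C57BL/6J, with no age or genotype. The study calls its mice wild type, and its methods state an age for mice of the pharmacokinetic, behavioral and biochemical work. Those methods name C57BL/6 mice of more than 1 supplier, so the substrain is not settled. Also by the labels, each array held RNA pooled from 2 of the 6 mice in the group, so an array shows the mean of a pair of animals. Vehicle held DMSO (10%) in equal shares of saline and PEG-400 (45% each), and mice received 7.5 mL/kg of it i.p. daily for 10 days before tissue was collected 1 h after the last dose. The study compared HDAC inhibitors with this vehicle within each region, and the contrast of regions without drug asks which transcripts set the 2 tissues apart before any inhibitor is given. Both regions went through the same injections, so neither is an untreated tissue.

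The HIP is built of glutamatergic principal neurons, the pyramidal cells of the CA fields and the granule cells of the dentate gyrus, with a minority of GABAergic interneurons. It develops from the pallium, the part of the embryonic forebrain that also gives rise to the neocortex. The NAc is the ventral part of the striatum and develops from the subpallium. Most of its neurons are GABAergic projection neurons that receive dopamine from the midbrain and fall into a class with the D1 receptor and a class with the D2 receptor, and cholinergic interneurons form a small further population. The dopamine receptors act on cAMP in opposite directions, and DARPP-32, phosphodiesterases and RGS proteins shape the signal downstream.

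Raw intensities had medians between 94.4 and 104.4 on the 6 arrays, and the 95th percentile was 480.5 and 575.3 on NAc pools 1 and 2 against 686.4 to 861.2 on the other 4. Between 34.66% and 41.02% of the 45281 probes on an array reached a detection p of 0.01 or less, which is called detected below. All values are log2 quantile-normalized intensities unless stated, and are given in the order of pools 1, 2 and 3. Across tested probes, arrays of 1 region correlated with r between 0.971 and 0.995 and arrays of different regions with r between 0.944 and 0.956. The first principal component held 70.4% of the variance and placed the HIP arrays between -28.03 and -22.84 and the NAc arrays between 18.04 and 30.06. Within each region pools 1 and 2 shared a BeadChip and pool 3 lay on another, and no BeadChip held both regions. With the BeadChip as a random block in place of the pool, 2392 probes were called. The median SD between pools was 0.075 in the HIP and 0.10 in the NAc. The labels name the pools as different mice. With the pool as a fixed term, p-values cover how the difference HIP minus NAc varies from pool to pool, not the spread in level between pools.

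The 4 genes used to check the dissections lay on the side of their region. The dentate granule cell transcription factor Prox1 read 7.76, 7.88 and 8.17 in the HIP and 6.84, 6.73 and 6.68 in the NAc, a difference of 1.19 ± 0.12 (SE, adjusted p = 0.00937). These values are of the brighter of 2 tested Prox1 probes, and the other was not called. The vesicular glutamate transporter Slc17a7 (VGLUT1) read 11.18, 10.84 and 10.73 in the HIP and 8.10, 8.27 and 7.64 in the NAc, which is 2.92 ± 0.13 (adjusted p = 0.00124) or 7.55-fold. Both were higher on every HIP array than on any NAc array. The D2 dopamine receptor Drd2 read 6.60, 6.59 and 6.54 in the HIP and 8.76, 8.98 and 9.40 in the NAc and was detected on 0 of 3 HIP arrays, so it was at least 5.11-fold higher in the NAc (adjusted p = 0.0022). Adora2a, an adenosine receptor of the same projection neurons, read 6.56, 6.58 and 6.65 in the HIP and 7.54, 7.54 and 7.65 in the NAc and was also undetected on all 3 HIP arrays, giving at least 1.84-fold (adjusted p = 0.00292). Without pool 2 the adjusted p was 0.11 for Prox1 and 0.0705 for Adora2a, with differences of 1.21 and -0.99. In tissue RNA, fewer cells of a type and less RNA per cell cannot be told apart, here and in every value that follows.

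Limma's moderated test with the pool as a block, adjusted by Benjamini-Hochberg, called 1902 of 21629 tested probes at an adjusted p under 0.05, which is 8.79%. Of these, 865 (4% of those tested) were higher in the HIP and 1037 (4.79%) were higher in the NAc. A difference of at least 2-fold was called for 442 probes, 2.04% of those tested, with 213 (0.985%) higher in the HIP and 229 (1.06%) higher in the NAc. The unadjusted p was under 0.05 for 5367 probes, and the 3 HIP values lay apart from the 3 NAc values for 7766 (35.9%). Without the pool as a block 3560 probes were called, while the 2-fold count was 453. Leaving out 1 pool left 466 calls without pool 1, 150 without pool 2 and 7701 without pool 3, and the 2-fold count was 376, 150 and 684. Each of those fits has 1 residual degree of freedom, against 2 with all pools. Without pool 3 each region lay on 1 BeadChip, so that fit holds no spread between BeadChips of a region. The largest difference toward the HIP was 5.07.

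**Figure D1:**
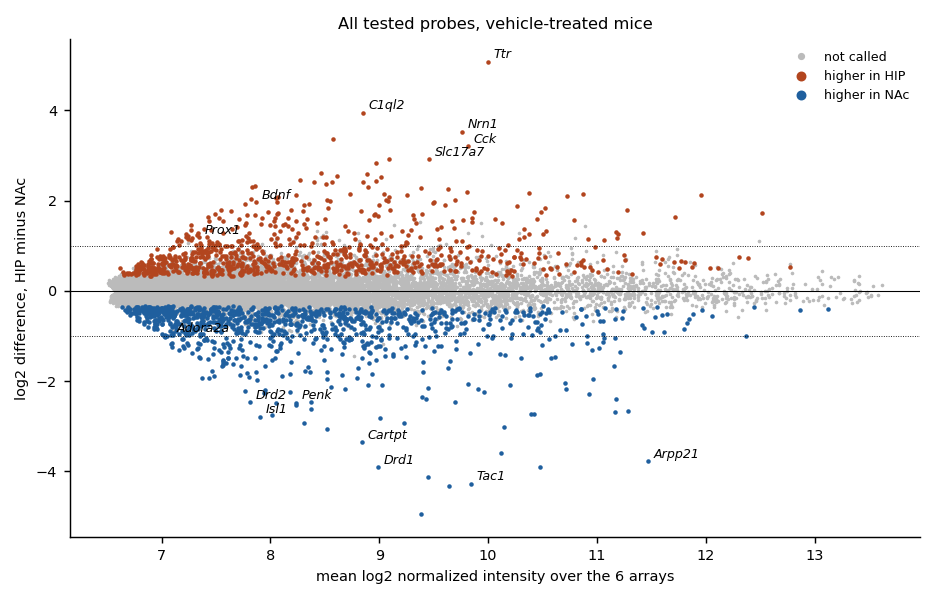
Each point is 1 of the 21629 tested probes, with its mean log2 normalized intensity over the 6 vehicle arrays on the x axis and its log2 difference, HIP minus NAc, on the y axis. Coloured points are the 865 probes called higher in the HIP and the 1037 called higher in the NAc, dotted lines mark 2-fold, and the named genes reach from Ttr at 5.07 to Tac1 at -4.27.

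The genes with the largest differences in favor of the HIP were Ttr, C1ql2, Nrn1, Neurod2, Cck, Gfap, Slc17a7, Slc30a3, Spink8, Pcdh20, Hsd11b1, Fibcd1, Hopx, Fezf2 and Sertm1. C1ql2, a secreted C1q-like protein of dentate granule cells and their mossy fiber synapses, read 10.80, 10.70 and 10.95 in the HIP and 7.10, 6.82 and 6.71 in the NAc, a difference of 3.94 ± 0.12 (adjusted p = 0.000705) or 15.4-fold. Nrn1 (neuritin), an activity-regulated protein of neurites, read 11.46, 11.55 and 11.55 in the HIP and 7.97, 8.43 and 7.60 in the NAc, which is 3.53 ± 0.16 (adjusted p = 0.00129). The bHLH transcription factor Neurod2 of cortical and hippocampal excitatory neurons read 10.41, 10.43 and 9.94 in the HIP and 6.89, 6.95 and 6.82 in the NAc, with a difference of 3.37 ± 0.10 (adjusted p = 0.000705). Slc30a3, which loads zinc into glutamatergic vesicles, read 10.36, 10.30 and 10.51 in the HIP and 7.48, 8.12 and 7.05 in the NAc, with NAc pool 2 highest of the NAc arrays. Spink8 and Fibcd1, both known from CA1 pyramidal cells, differed by 2.60 ± 0.07 (adjusted p = 0.000705) and 2.53 ± 0.24 (adjusted p = 0.00707), and without pool 2 the adjusted p of Fibcd1 was 0.0818. Hsd11b1, the enzyme that regenerates active glucocorticoid inside cells, read 9.94, 9.90 and 9.82 in the HIP and 7.44, 7.34 and 7.22 in the NAc, a difference of 2.55 ± 0.07 (adjusted p = 0.000705) with all arrays of a region within 0.3 of each other. Fezf2, a transcription factor of pallial projection neurons listed on the array as Zfp312, read 10.07, 9.99 and 10.09 in the HIP and 7.79, 7.66 and 7.50 in the NAc, and a second probe of the gene was also higher in the HIP. For Hopx 1 of 2 tested probes was called. The 15 genes did not share 1 pattern in the prefrontal cortex (PFC) of the same vehicle mice, measured on 3 further arrays of the same pools. PFC means, here and below, are given with the SD over those 3 arrays and not with an SE. The PFC mean was 11.42 ± 0.29 for Slc17a7, 11.39 ± 0.11 for Nrn1, 10.98 ± 0.15 for Slc30a3 and 11.03 ± 0.11 for Fezf2, close to or above the HIP mean in each case. It was 7.21 ± 0.08 for C1ql2, 6.76 ± 0.20 for Spink8, 7.22 ± 0.09 for Fibcd1 and 7.95 ± 0.12 for the protocadherin Pcdh20, nearer the NAc mean than the HIP mean in each case.

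In the other direction 14 of the 15 largest differences, with 1 gene not reported here, were those of Rgs9, Tac1, Scn4b, Drd1, Ppp1r1b, Arpp21, Pdyn, Cartpt, Unc13c, Rarb, Isl1, Ido1, Meis2 and Pcp4l1. Rgs9, which speeds the shut-off of G proteins downstream of dopamine receptors, read 7.39, 7.29 and 7.76 in the HIP and 11.79, 11.91 and 11.71 in the NAc, which is -4.32 ± 0.14 (adjusted p = 0.000772). Scn4b, the beta4 subunit of sodium channels, read 7.14, 7.38 and 7.65 in the HIP and 11.52, 11.57 and 11.44 in the NAc, with a difference of -4.12 ± 0.13 (adjusted p = 0.000705). The D1 receptor Drd1 (Drd1a on the array) read 6.998, 7.07 and 7.04 in the HIP and 10.81, 11.02 and 11.01 in the NAc, and DARPP-32 (Ppp1r1b) read 8.44, 8.43 and 8.72 in the HIP and 12.45, 12.63 and 12.19 in the NAc. All of these NAc values stood over 3 log2 units above every HIP value. Arpp21, a phosphoprotein of the cAMP pathway, read 9.59, 9.54 and 9.62 in the HIP and 13.24, 13.35 and 13.49 in the NAc. Unc13c, a vesicle priming protein, had the widest spread over NAc pools, at 7.92, 7.93 and 7.44 in the HIP and 10.41, 10.43 and 11.26 in the NAc, and its adjusted p was 0.0702 without pool 2. Ido1, which opens the tryptophan ring on the route to kynurenine and is named Indo on the array, read 6.70, 6.56 and 6.68 in the HIP and 9.31, 9.43 and 9.44 in the NAc and was detected on 1 of 3 HIP arrays. Isl1 was undetected on all 3 HIP arrays and was at least 6.09-fold higher in the NAc (adjusted p = 0.000705). In the PFC the means (± SD) were 7.51 ± 0.15 for Drd1 and 8.57 ± 0.34 for Ppp1r1b, and 11.44 ± 0.09 for Arpp21 and 10.56 ± 0.07 for Meis2, the last pair lying between the HIP and NAc means. One probe with only a provisional name, LOC100047385, would have ranked among these 15 and was passed over.

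**Figure D2:**
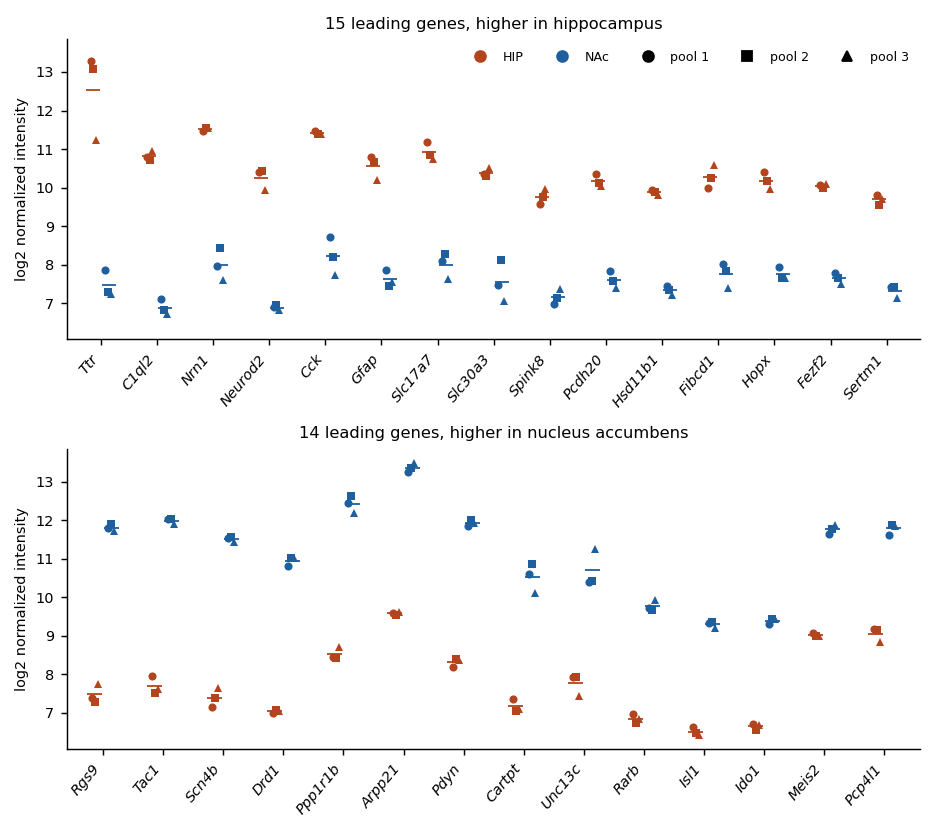
Points are the log2 normalized intensities of single arrays (y axis) for 15 leading genes higher in the HIP and 14 higher in the NAc (x axis), with HIP in red, NAc in blue, a symbol for each pool of 2 mice and a line at the mean of 3 arrays. The 3 HIP values lie apart from the 3 NAc values for all 29 genes, and the widest spread within a group is that of Ttr in the HIP, from 11.23 to 13.29.

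The same 30 genes were measured in 9 further pools, from mice given Cpd-60, SAHA or CI-994, that took no part in the test. Values of these pools come from quantile normalization of all 36 arrays, and vehicle values from that of 27. In all 9 pools each of the 30 genes differed in the direction found under vehicle. The differences of Rgs9 in those pools ran from -4.70 to -2.84 with a median of -4.10, and those of C1ql2 from 3.73 to 4.02 with a median of 3.81. Gfap and Ttr had wide ranges, from 0.52 to 3.38 and from 1.38 to 5.27. Of the 1902 called probes, 1557 (81.9%) had the same sign in 9 of 9 drug-treated pools, and of the 442 called at 2-fold, 431 (97.5%) did. Over all tested probes the share was 15.97%. These mice received drugs, so they are not replicates of vehicle, and for 1 Cpd-60 pool the labels disagree on which mice it holds.

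**Figure D3:**
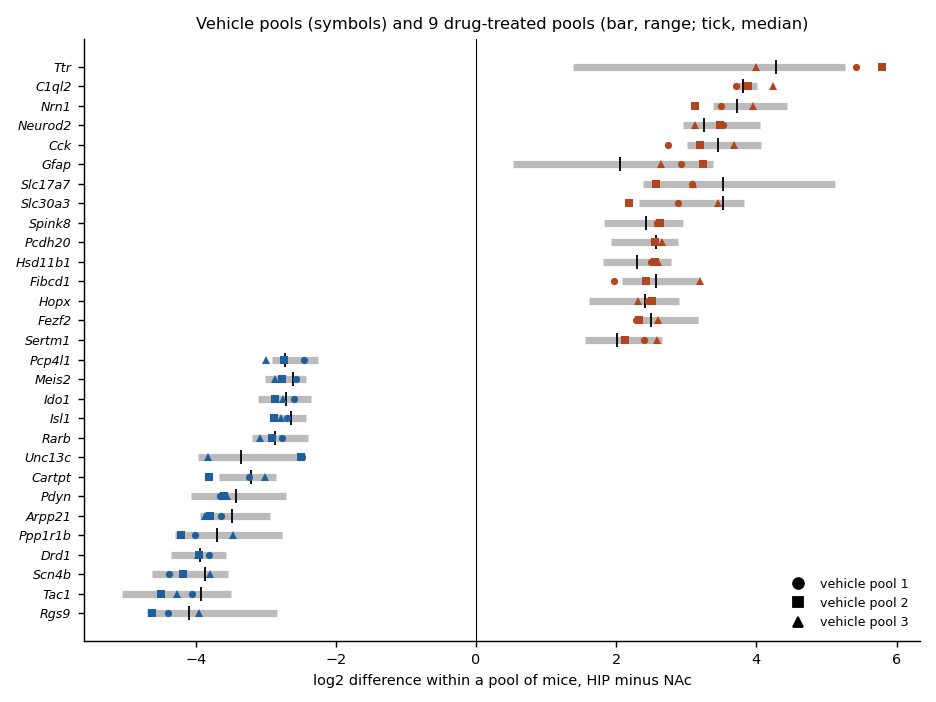
The x axis is the log2 difference, HIP minus NAc, within a pool of 2 mice, for the same 29 leading genes (y axis). Symbols are the 3 vehicle pools, gray bars the range over 9 drug-treated pools and ticks their median, and no bar crosses 0. Vehicle values are from normalization of 27 arrays and drug-treated values from that of all 36.

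Among the leading genes are the precursors of neuropeptides, small secreted transmitters that mark classes of forebrain neuron, and 4 of them are shown with the 250 bases upstream of their RefSeq start (GRCm38.p6), because Cck is higher in the HIP and the other 3 in the NAc. Capitals mark TGACG on either strand, the core of the cAMP response element, where a pair of overlapping matches runs together as the full element TGACGTCA.
Cck, chr9:121495695-121495944, - strand: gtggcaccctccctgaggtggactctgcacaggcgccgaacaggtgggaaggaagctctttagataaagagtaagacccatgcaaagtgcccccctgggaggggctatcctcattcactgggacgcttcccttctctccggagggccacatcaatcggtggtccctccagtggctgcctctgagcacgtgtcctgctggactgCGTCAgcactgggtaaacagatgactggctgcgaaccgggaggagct
Cartpt, chr13:99900684-99900933, - strand: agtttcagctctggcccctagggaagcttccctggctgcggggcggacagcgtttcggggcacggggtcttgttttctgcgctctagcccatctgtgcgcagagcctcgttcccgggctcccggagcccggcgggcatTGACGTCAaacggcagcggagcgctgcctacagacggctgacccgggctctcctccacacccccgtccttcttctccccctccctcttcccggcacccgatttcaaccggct
Tac1, chr6:7554811-7555060, + strand: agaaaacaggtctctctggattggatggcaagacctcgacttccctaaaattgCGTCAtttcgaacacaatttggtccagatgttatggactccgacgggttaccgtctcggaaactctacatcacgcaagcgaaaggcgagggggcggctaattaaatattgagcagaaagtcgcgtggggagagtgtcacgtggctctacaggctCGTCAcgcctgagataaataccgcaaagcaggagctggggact
Pdyn, chr2:129699939-129700188, - strand: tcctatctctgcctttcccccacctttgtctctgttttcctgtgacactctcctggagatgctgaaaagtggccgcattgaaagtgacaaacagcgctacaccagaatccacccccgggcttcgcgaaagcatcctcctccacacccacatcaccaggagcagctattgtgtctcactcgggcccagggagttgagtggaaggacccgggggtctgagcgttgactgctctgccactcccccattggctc
The TGACG letters occurred once in the window of Cck, 47 bases before the start, as 2 overlapping matches in Cartpt, as 2 separate matches in Tac1 and 0 times in Pdyn. Of the 30 leading genes 24 had an entry in the table, and 6 of 24 windows (25%) held TGACG, 3 of 12 higher in the HIP and 3 of 12 higher in the NAc, against 17.9% of 27025 genes by the first start listed. The E-box CAGATG, a sequence that bHLH factors bind, was searched on both strands in the same way and lay in 4 of 12 windows of genes higher in the HIP, among them Cck and Neurod2, in 3 of 12 higher in the NAc and in 14.5% of all genes. A match of letters is a description of the window, not a binding site.

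The neuropeptide list had 14 tested genes, of which 3 were higher in the HIP and 5 in the NAc, where 4.4% and 5.25% of 14691 genes were called in each direction with 1 probe per gene (9.65% in all, median difference -0.0037). Cck, the cholecystokinin precursor, read 11.47, 11.39 and 11.40 in the HIP and 8.73, 8.20 and 7.72 in the NAc, a difference of 3.20 ± 0.18 (adjusted p = 0.00209). Grp (gastrin-releasing peptide) and Vip (vasoactive intestinal peptide) were undetected on all NAc arrays, at least 2.03-fold and 2.13-fold higher in the HIP, with adjusted p of 0.0038 and 0.00219. Tac1, the substance P precursor, read 7.96, 7.52 and 7.63 in the HIP and 12.03, 12.02 and 11.89 in the NAc, which is -4.27 ± 0.10 (adjusted p = 0.000705). Pdyn (prodynorphin) read 8.18, 8.40 and 8.38 in the HIP and 11.84, 11.99 and 11.93 in the NAc and differed by -3.60 ± 0.07 (adjusted p = 0.000447). Tac1 and Pdyn are peptides of the projection neurons with the D1 receptor, and their NAc values varied by under 0.2 between pools. Penk (proenkephalin, Penk1 on the array), the peptide of the neurons with the D2 receptor, was less even, at 7.08, 6.93 and 6.97 in the HIP and 8.89, 9.18 and 10.35 in the NAc, a difference of -2.48 ± 0.30 (adjusted p = 0.0137). Cartpt read 7.35, 7.06 and 7.09 in the HIP and 10.60, 10.86 and 10.10 in the NAc and Trh, the thyrotropin-releasing hormone gene, differed by -0.57 ± 0.10 (adjusted p = 0.035). Sst and Npy, peptides of interneurons in both tissues, were not called, with differences of 0.41 ± 0.19 (adjusted p = 0.263) and -0.24 ± 0.07 (adjusted p = 0.124). Without pool 2, 2 genes of the list were called higher in the HIP and 3 in the NAc.

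Among 25 tested markers of striatal projection neurons, 24 were higher in the NAc, 21 of them by at least 2-fold, and the list median was -2.48. The exception was the D3 receptor Drd3, at 6.46, 6.51 and 6.58 in the HIP and 6.75, 6.71 and 6.61 in the NAc, a difference of -0.17 ± 0.08 (adjusted p = 0.271). Beyond the leading genes, Gng7 (a G protein gamma subunit) read 9.95, 9.86 and 10.13 in the HIP and 12.26, 12.44 and 12.40 in the NAc and Rasd2 (the striatal GTPase Rhes) read 9.56, 9.92 and 9.87 in the HIP and 11.99, 12.10 and 12.13 in the NAc, bright in both regions. Pde10a, the striatal cyclic nucleotide phosphodiesterase, read 6.77, 6.83 and 6.76 in the HIP and 8.48, 8.66 and 8.79 in the NAc, while Gpr6, a receptor of the neurons with the D2 receptor, was undetected in the HIP and at least 3.27-fold higher in the NAc. Penk and Syndig1l (Tmem90a on the array) shared 1 pattern over NAc pools, with pool 3 highest, Syndig1l reading 7.03, 6.74 and 6.63 in the HIP and 8.81, 9.04 and 10.03 in the NAc. Drd2 was also highest in NAc pool 3. Without pool 1, 22 of the 25 were called, without pool 2 16, and without pool 3 25.

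The dopamine receptor and cAMP list, which shares genes with the list before, had 13 of 17 tested genes higher in the NAc against 0 in the HIP, with a median of -1.86. Gnal, the G protein alpha subunit that couples striatal receptors to adenylate cyclase, read 7.09, 7.34 and 7.07 in the HIP and 8.84, 8.78 and 9.53 in the NAc, a difference of -1.88 ± 0.20 (adjusted p = 0.00992) that was not called without pool 1 or pool 2. Pde1b, a calmodulin-dependent phosphodiesterase, read 10.18, 9.96 and 9.74 in the HIP and 12.38, 12.68 and 12.80 in the NAc, which is -2.66 ± 0.17 (adjusted p = 0.00271). Th, tyrosine hydroxylase, was near the detection limit, at 6.50, 6.54 and 6.57 in the HIP and 6.88, 7.08 and 6.97 in the NAc, and was at least 1.22-fold higher in the NAc (adjusted p = 0.0299). Drd5 and the dopamine transporter Slc6a3 were not called, with differences of 0.20 ± 0.07 (adjusted p = 0.189) and -0.09 ± 0.07 (adjusted p = 0.517). Without pool 2, 7 of the 17 were called.

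Protein families were read by gene symbol, a grouping chosen by family after the files were seen. Pde1b, Pde10a, Pde7b and Rgs9 are also on the dopamine receptor and cAMP list, so their families are not separate from it. Of 13 tested phosphodiesterases of cyclic nucleotides, 7 were higher in the NAc against 0 in the HIP, namely Pde1b, Pde10a, Pde2a (-0.84 ± 0.10), Pde7b, Pde1c (-0.74 ± 0.07), Pde4d (-0.49 ± 0.08) and Pde4b (-0.38 ± 0.07). That is 53.8% of the family, against 9.65% of all genes. The adenylate cyclases, the enzymes that make cAMP, ran the other way, with 3 of 8 tested (37.5%) higher in the HIP and 0 in the NAc. Adcy1, the calmodulin-stimulated form, read 9.76, 9.77 and 9.88 in the HIP and 7.77, 7.39 and 7.83 in the NAc, a difference of 2.14 ± 0.10. Adcy9 and Adcy2 differed by 0.79 ± 0.13 and 0.71 ± 0.11, and Adcy5, the main striatal form, did not pass the detection filter and was not tested. Of 16 RGS genes, 5 (31.2%) were higher in the NAc against 0 in the HIP, with Rgs9 followed by Rgs4 (-1.32 ± 0.12), Rgs8 (-1.23 ± 0.09), Rgs2 and Rgs12. Diacylglycerol kinases (11 tested, 36.4% called) were called both ways, with Dgkg (1.62 ± 0.09) and Dgkz (1.10 ± 0.08) higher in the HIP and Dgkb (-1.15 ± 0.09) and Dgkk higher in the NAc. Other families lay below the share of all genes, with 5.88% for Wnt ligands and Frizzled receptors and 5.26% for fibroblast growth factors and receptors. Sox factors had 7.69%, nuclear receptors 7.14% and S100 proteins 0%. Of the 60 calls over all 19 families, 28 were called without pool 1, 9 without pool 2 and 60 without pool 3, and all 60 had the same sign in each. Without pool 3 each region lay on 1 BeadChip.

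All 3 called genes of the GABA synthesis and transport list (6 tested) and all 4 of the cholinergic neuron list (5 tested) were higher in the NAc. Gad2, which makes synaptic GABA, read 10.18, 9.93 and 9.85 in the HIP and 11.91, 11.84 and 12.09 in the NAc, a difference of -1.96 ± 0.12 (adjusted p = 0.00218) for the probe named 6330404F12Rik. The vesicular GABA transporter Slc32a1 read 10.25, 10.37 and 10.37 in the HIP and 12.01, 12.03 and 11.92 in the NAc, which is -1.66 ± 0.08 (adjusted p = 0.00128), and Abat, which breaks GABA down, differed by -0.86 ± 0.08 (adjusted p = 0.00748). Gad1 overlapped between regions, at 11.22, 11.003 and 10.93 in the HIP and 11.22, 11.29 and 11.86 in the NAc, and was not called. Chat (choline acetyltransferase) and the choline transporter Slc5a7 were undetected on all HIP arrays and were at least 3.33-fold and 2.21-fold higher in the NAc, with adjusted p of 0.000995 and 0.00224. Slc18a3, the vesicular acetylcholine transporter, was also undetected there, at least 1.21-fold (adjusted p = 0.0152), and Lhx8, a transcription factor of these neurons, differed by -0.74 ± 0.07 (adjusted p = 0.0077). Without pool 2, 2 GABA genes and 1 cholinergic gene were called. Among 7 tested cannabinoid, muscarinic and nicotinic receptors the 1 call went the other way, Chrm3, a muscarinic acetylcholine receptor, with a difference of 0.76 ± 0.14 (adjusted p = 0.0369), and it was not called without pool 1, without pool 2 or with median scaling. The 1 call is 14.3% of the list, against 9.65% of all genes.

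Transcription factors of the embryonic compartments split by region. The pallial list had 4 of 8 tested genes higher in the HIP and 0 in the NAc, namely Neurod2, Prox1, Tbr1 (0.74 ± 0.07, adjusted p = 0.0063) and Lhx9, which was undetected in the NAc and at least 1.16-fold higher in the HIP. Tbr1, a factor of early-born pallial neurons, read 7.62, 7.70 and 7.59 in the HIP and 6.93, 6.94 and 6.83 in the NAc against a PFC mean of 9.22 ± 0.08 (SD). Emx1 and Lhx2 had differences of 0.32 ± 0.09 (adjusted p = 0.0997) and 0.30 ± 0.07 (adjusted p = 0.0793) and were not called. The subpallial list had 11 of 16 tested genes higher in the NAc against 0 in the HIP, with a median of -0.82. Rarb, the retinoic acid receptor beta, read 6.96, 6.75 and 6.84 in the HIP and 9.72, 9.66 and 9.93 in the NAc, which is -2.92 ± 0.09 (adjusted p = 0.000705), and Meis2, a homeodomain factor, read 9.07, 8.99 and 9.003 in the HIP and 11.63, 11.77 and 11.88 in the NAc. Foxp1 read 8.20, 7.89 and 7.97 in the HIP and 9.79, 9.74 and 10.02 in the NAc, a difference of -1.83 ± 0.11 (adjusted p = 0.00218), while its relative Foxp2 was undetected in the HIP and at least 1.96-fold higher in the NAc (adjusted p = 0.00339). The homeobox gene Dlx6 differed by -1.40 ± 0.10 (adjusted p = 0.00346) and Bcl11b (Ctip2), which dentate and CA1 neurons also carry, by -0.91 ± 0.11 (adjusted p = 0.0149). Dlx1, Dlx2, Sp9, Ebf1 and Ikzf1 were not called, with differences from -0.33 to -0.04. Without pool 2, 1 pallial and 5 subpallial genes were called.

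Retinoid genes were called in both directions. Higher in the NAc were 3 of 8 tested genes, among them Rarb and its partner Rxrg, and Aldh1a1, an enzyme that makes retinoic acid, was undetected there and at least 1.49-fold higher in the HIP. Rxrg, a retinoid X receptor, read 6.75, 6.59 and 6.62 in the HIP and 8.78, 8.94 and 8.90 in the NAc, a difference of -2.22 ± 0.09 (adjusted p = 0.00104). The other 4 of the 8 were not called, and without pool 2 2 genes were.

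Hippocampal and glutamatergic genes formed the other pole. Of 18 tested markers of hippocampal principal neurons, 11 were higher in the HIP, 1 was higher in the NAc and 6 were not called, with a list median of 0.83. After C1ql2, Neurod2, Spink8 and Fibcd1 came Bok, a relative of BCL-2, at 10.20, 10.17 and 10.09 in the HIP and 8.44, 8.56 and 8.41 in the NAc. Wfs1 (wolframin), a CA1 marker, went against its list, at 8.42, 8.65 and 8.46 in the HIP and 10.21, 10.24 and 10.45 in the NAc, a difference of -1.79 ± 0.10 (adjusted p = 0.00181) or 3.46-fold higher in the NAc. Zbtb20, Pou3f1, Lmo1, Man1a, Nr3c2 and Grik4 had differences between -0.11 and 0.21 and were not called. The glutamatergic list had 6 of 9 tested genes higher in the HIP and 1 in the NAc. Camk2a, the calmodulin kinase of excitatory synapses, read 11.87, 11.76 and 11.85 in the HIP and 10.72, 10.44 and 10.53 in the NAc, which is 1.26 ± 0.07 (adjusted p = 0.00219), and Nrgn (neurogranin), which holds calmodulin, read 11.84, 11.48 and 11.40 in the HIP and 9.65, 9.76 and 10.58 in the NAc, with NAc pool 3 highest. Nrgn was not called without pool 1 or pool 2. Baiap2, a postsynaptic scaffold protein, was the gene higher in the NAc, by -0.54 ± 0.08 (adjusted p = 0.0252). Slc17a6 (VGLUT2), the transporter of subcortical glutamatergic neurons, overlapped, at 8.07, 8.29 and 8.82 in the HIP and 8.56, 8.24 and 7.39 in the NAc, and was not called. Without pool 2, 5 hippocampal and 3 glutamatergic genes were called higher in the HIP.

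**Figure D4:**
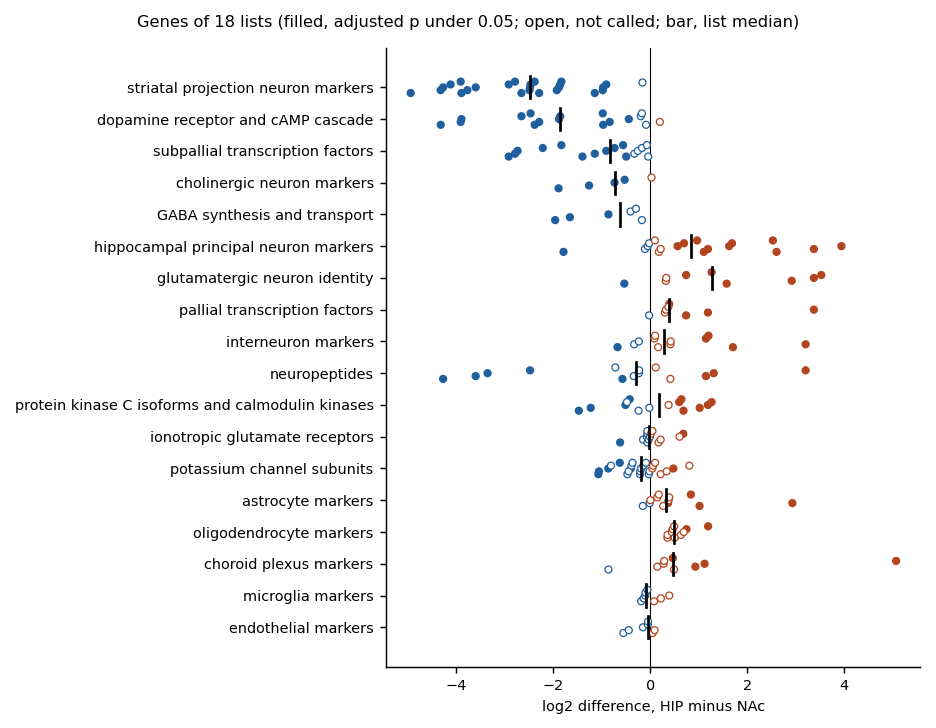
The x axis is the log2 difference, HIP minus NAc, of each tested gene, 1 probe per gene, in 18 lists (y axis), with filled circles for an adjusted p under 0.05, open circles for genes not called and a bar at the list median. The bar lies at -2.48 for striatal projection neuron markers and at 1.26 for glutamatergic identity, and near 0 for ionotropic glutamate receptors, microglia and endothelial markers.

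Receptor and channel lists had between 14.3% and 50% of their tested genes called, against 9.65% of all genes. Of 14 tested ionotropic glutamate receptor subunits, Gria1 was higher in the HIP (0.68 ± 0.09, adjusted p = 0.0167) and Grik2 higher in the NAc (-0.62 ± 0.09, adjusted p = 0.0187), which is 14.3% of the list against 9.65% of all genes. Grm5, the metabotropic receptor mGluR5, read 9.54, 9.40 and 9.38 in the HIP and 10.01, 10.16 and 10.20 in the NAc, a difference of -0.68 ± 0.10 (adjusted p = 0.0194), and the other 4 metabotropic receptors were not called. The extrasynaptic GABA-A subunit Gabrd read 7.41, 7.41 and 7.57 in the HIP and 9.26, 9.42 and 9.11 in the NAc, which is -1.80 ± 0.11 (adjusted p = 0.00235). Gabrg3, by the probe named B230362M20Rik, was also higher in the NAc (-0.47 ± 0.09, adjusted p = 0.0412), and the other 6 tested subunits were not called. Serotonin receptors were split, with 2 of 8 tested genes higher in the HIP and 2 in the NAc, 50% of the list. Htr1a and Htr5b were higher in the HIP, Htr1a by 0.93 ± 0.09 (adjusted p = 0.00852) and Htr5b by at least 2.01-fold because it was undetected in the NAc. Htr1d was undetected in the HIP and at least 2.66-fold higher in the NAc, and Htr1b differed by -0.62 ± 0.09 (adjusted p = 0.0199). Of 13 neuropeptide receptors, Npy2r was higher in the HIP (0.87 ± 0.12, adjusted p = 0.0199), and Cckbr, Tacr1 and the kappa opioid receptor Oprk1 were higher in the NAc. Together these were 30.8% of the list. Cckbr read 7.36, 7.65 and 7.39 in the HIP and 8.72, 8.76 and 8.26 in the NAc. Between the HIP and NAc the CCK-B receptor was thus higher where Cck itself was lower. In the PFC both were high, with means of 10.83 ± 0.15 (SD) for Cckbr and 11.88 ± 0.16 (SD) for Cck, each above the HIP and NAc means. Potassium channel subunits had 5 of 24 tested genes higher in the NAc against 1 in the HIP, Kcnh1 and Kcnj4 leading at -1.07 ± 0.14 (adjusted p = 0.0149) and -1.06 ± 0.14 (adjusted p = 0.0183). Calcium channel subunits had 5 of 20 higher in the NAc, among them Cacng4 (-1.32 ± 0.09) and Cacna2d3 (-1.23 ± 0.07), and 1 in the HIP, Cacnb3 (0.45 ± 0.07). The share called was 25% for potassium and 30% for calcium channel subunits, against 9.65% of all genes. Without pool 2, 0 of the glutamate receptor, neuropeptide receptor and potassium channel genes were called, and Gabrd and Htr1d were the only calls left in their lists.

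Kinases that answer calcium and diacylglycerol were divided between the regions, with 6 of 14 tested genes higher in the HIP and 4 in the NAc, 71.4% of the list. Camk2a and Camkk1 (1.02 ± 0.11, adjusted p = 0.00949) were among those higher in the HIP. Prkch was undetected in the HIP and at least 2.60-fold higher in the NAc (adjusted p = 0.00229), and Camk4 read 8.80, 9.08 and 8.90 in the HIP and 9.86, 9.98 and 10.63 in the NAc, with NAc pool 3 highest. Prkcb differed by -0.51 ± 0.08 (adjusted p = 0.0243) although it was bright on every array. Only Prkch was called without pool 2. Among calcium-binding proteins Ncald (2.02 ± 0.22, adjusted p = 0.01), Cabp7 and Pvalb were higher in the HIP. Cabp7 was undetected in the NAc and at least 3.28-fold higher in the HIP, and Ncald was not called without pool 1 or pool 2. The neurotrophin Bdnf, a growth factor released from active neurons, read 8.85, 8.91 and 8.79 in the HIP and 7.04, 6.97 and 6.65 in the NAc, a difference of 1.96 ± 0.09 (adjusted p = 0.00128), and was detected on 2 of 3 NAc arrays. Of the 6 tested Bdnf probes, 2 were called higher in the HIP and 0 higher in the NAc.

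Interneuron markers had 4 of 12 tested genes higher in the HIP, Cck, Pvalb (1.70 ± 0.23, adjusted p = 0.0173), Cort (1.20 ± 0.08, adjusted p = 0.0026) and Vip, and 1, Reln (-0.68 ± 0.10, adjusted p = 0.0216), higher in the NAc. Pvalb, which marks fast-spiking cells of both tissues, read 10.12, 10.26 and 10.36 in the HIP and 8.91, 8.72 and 7.9995 in the NAc. The list median was 0.29, and Cck was the only one called without pool 2. Cck is also made by pyramidal cells, so its place on this list does not assign it to interneurons.

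Guidance and adhesion families held calls in both directions, where 9.65% of all genes were called. Plxnd1 (-1.49 ± 0.07) and Sema3f (-1.30 ± 0.08) were higher in the NAc with Plxna2 and Sema3a, and Sema5a (1.59 ± 0.15) was higher in the HIP, 5 of 22 semaphorins and plexins (22.7%). Of 16 cadherins, Cdh4 (-1.03 ± 0.11), Cdh13 (-1.01 ± 0.10), Cdh7 and Cdh15 were higher in the NAc against 0 in the HIP, a share of 25%. The protocadherins had 4 of 39 called, Pcdh20 (2.58 ± 0.07) and Pcdh19 in the HIP and Pcdh10 (-1.26 ± 0.14) and Pcdh17 in the NAc, a share of 10.3%. Of 13 tested Eph receptors and ephrins, 2 were higher in the NAc and 0 in the HIP (15.4% of the list), while the list median was 0.17. Efna5, a ligand of Eph receptors, read 7.64, 7.45 and 7.49 in the HIP and 8.79, 8.66 and 8.57 in the NAc, which is -1.15 ± 0.07 (adjusted p = 0.0023), and the receptor Ephb1 differed by -0.75 ± 0.14 (adjusted p = 0.0368). The counts by direction turned with the setting, to 3 in the HIP and 2 in the NAc without the pool as a block or with the BeadChip as a random block, 4 and 2 with all 24 HIP and NAc arrays, 5 and 2 without pool 3, and 0 and 0 without pool 2. The collagen gene Col6a1 read 7.22, 7.16 and 7.05 in the HIP and 9.45, 9.49 and 9.89 in the NAc, a difference of -2.46 ± 0.14, and was called with Col1a1 toward the NAc, with Col22a1 toward the HIP. Together these were 13.6% of 22 tested collagens. Ribosomal protein genes, 58 tested, had 2 calls or 3.45%, a share below that of all genes.

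Glial and choroid plexus genes also differed. Astrocyte markers had 4 of 12 tested genes higher in the HIP and 0 in the NAc, with a list median of 0.32. Without pool 1 the count was 2, without pool 2 it was 1, and without pool 3 it was 8 with 1 gene higher in the NAc. Gfap, the intermediate filament of astrocytes, read 10.79, 10.68 and 10.19 in the HIP and 7.86, 7.44 and 7.56 in the NAc, a difference of 2.93 ± 0.13 (adjusted p = 0.00124) or 7.62-fold. Aqp4, the astrocyte water channel, read 9.91, 9.83 and 9.48 in the HIP and 8.70, 8.83 and 8.64 in the NAc, and the connexins Gjb6 and Gja1 differed by 0.84 ± 0.08 (adjusted p = 0.00805) and 0.37 ± 0.07 (adjusted p = 0.0428). Slc1a3, Aldh1l1 and Fgfr3, genes of astrocytes throughout the brain, were not called, with differences of -0.15 ± 0.14 (adjusted p = 0.548), 0.00 ± 0.09 (adjusted p = 0.994) and -0.01 ± 0.08 (adjusted p = 0.935). The summed intensity of the 12 astrocyte genes was between 16810 and 18450 in the HIP and between 13990 and 14480 in the NAc. Of 10 oligodendrocyte markers all 10 had positive differences, from 0.35 to 1.19, and 2 were called, 20% of the list. One of them, the myelin gene Mobp, read 10.82, 11.15 and 10.81 in the HIP and 9.63, 9.35 and 10.21 in the NAc and was not called without pool 1 or pool 2. Of the 5 tested Mobp probes, 2 were called higher in the HIP and 0 higher in the NAc. The summed intensity of the list was 27080 to 30410 in the HIP against 17100 to 22040 in the NAc. Microglial (8 tested), endothelial (7) and blood (3) genes had 0 calls in limma's test, beside 1, 2 and 1 with an unadjusted p under 0.05, and their list medians were -0.08, -0.05 and -0.01. Without pool 3, 3 microglial, 3 endothelial and 1 blood gene were called.

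Ttr, transthyretin, is the thyroid hormone carrier that the choroid plexus secretes into the cerebrospinal fluid, and it had the largest difference of any probe. It read 13.29, 13.09 and 11.23 in the HIP and 7.87, 7.29 and 7.24 in the NAc, a difference of 5.07 ± 0.36 (adjusted p = 0.00337) or 33.6-fold, and its HIP values had an SD of 1.13, with pool 3 lowest. Kl (klotho) read 8.12, 8.05 and 7.30 in the HIP and 6.61, 6.85 and 6.66 in the NAc, Sostdc1 read 7.88, 7.78 and 6.95 in the HIP and 6.57, 6.73 and 6.52 in the NAc and Prlr, the prolactin receptor, read 7.34, 7.38 and 6.87 in the HIP and 6.84, 6.78 and 6.57 in the NAc. In each of the 4 genes HIP pool 3 was the lowest of the HIP arrays. The choroid plexus list had 4 of 9 tested genes higher in the HIP and 0 in the NAc. Folr1, Otx2, Aqp1 and Slc4a5 were not called, with differences between 0.14 and 0.49, and Clic6 read 8.16, 8.16 and 6.91 in the HIP and 8.65, 8.67 and 8.49 in the NAc, lower in the HIP and not called. The summed intensity of the 9 genes was 3338 to 11520 in the HIP and 1184 to 1339 in the NAc, and without Ttr it was 931.2 to 1488 against 1032 to 1115. Without pool 1 or pool 2 only Ttr was called, Prlr was not called without the pool as a block, and with the BeadChip as a random block Sostdc1 and Prlr were not. Without pool 3, 7 of the 9 were called higher in the HIP and 1 higher in the NAc. How far plexus tissue in the dissected HIP enters these values was not tested. The ependymal list, whose cells line the ventricles, had 2 of 4 tested genes called, Mia (0.46 ± 0.07, adjusted p = 0.0244) and Dynlrb2 (0.47 ± 0.09, adjusted p = 0.0445), both higher in the HIP, and neither was called without pool 1, without pool 2 or with median scaling. In the 9 drug-treated pools Mia was higher in the HIP in all 9, and Dynlrb2 in 4, with a median difference of -0.09.

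**Figure D5:**
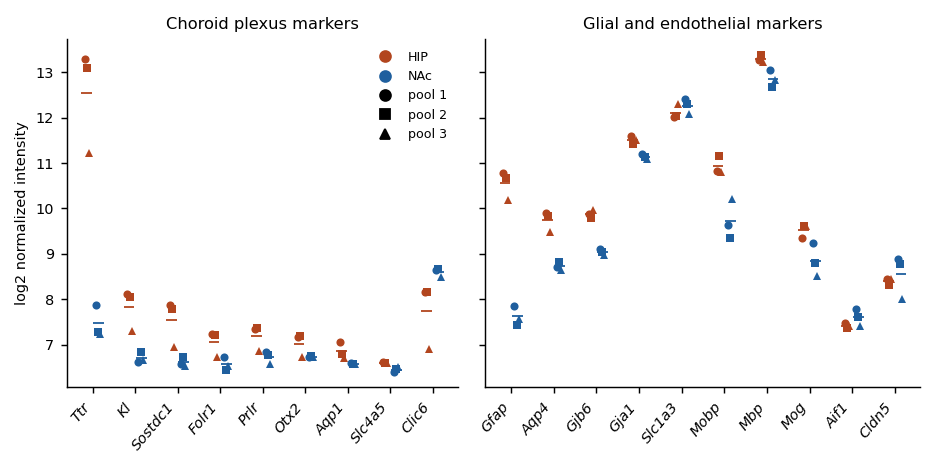
Points are log2 normalized intensities (y axis) of single arrays for the 9 tested choroid plexus markers on the left and 10 glial and endothelial markers on the right, HIP in red and NAc in blue, with a symbol per pool and a line at the mean of 3 arrays. Ttr in HIP pool 3 lies at 11.23, below 13.29 and 13.09 in pools 1 and 2 and above all NAc arrays, while Slc1a3, Aif1 and Cldn5 overlap between regions.

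The lists for neighboring tissue had few tested genes. The neocortical layer list had 2 of 8 tested genes higher in the HIP, Fezf2 and Nr4a2 (1.07 ± 0.11, adjusted p = 0.00911), and 1, Tle4 (-0.92 ± 0.12, adjusted p = 0.0155), higher in the NAc, all 3 of which neurons outside the neocortex also carry, so 37.5% of the list was called against 9.65% of all genes. Thalamic (5 tested) and hypothalamic (3 tested) genes had 0 calls in limma's test, beside 3 and 1 with an unadjusted p under 0.05. The septal list had 1 of 3 called (33.3%), Trpc4, which was undetected in the NAc and at least 1.12-fold higher in the HIP, and which was not called without pool 1 or pool 2.

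Histone deacetylases are the targets of the drugs used in the study. Of 10 tested HDAC genes only Hdac11 was called, at 9.10, 9.06 and 8.80 in the HIP and 9.67, 9.54 and 9.21 in the NAc, a difference of -0.49 ± 0.07 (adjusted p = 0.0209), which is 10% of the list against 9.65% of all genes. It was not called without pool 1 or pool 2, nor with neqc normalization, median scaling, the BeadChip as a random block or all 24 HIP and NAc arrays. Without pool 3, 2 HDAC genes were called higher in the HIP and 1 in the NAc. Hdac2, a target of the HDAC1/2 inhibitor Cpd-60, read 9.88, 9.96 and 10.05 in the HIP and 9.53, 9.53 and 9.94 in the NAc, with a difference of 0.30 ± 0.09 (adjusted p = 0.123), and Hdac3 differed by -0.02 ± 0.08 (adjusted p = 0.896). No probe on the array was matched to Hdac1. Steroid hormone receptors (5 tested) had 0 calls in limma's test and 0 with an unadjusted p under 0.05, with a median of 0.11. The glucocorticoid receptor Nr3c1 and the mineralocorticoid receptor Nr3c2, which hippocampal neurons are known for, differed by 0.10 ± 0.11 (adjusted p = 0.64) and 0.18 ± 0.08 (adjusted p = 0.265).

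Immediate early genes, which neurons switch on within minutes of activity, had 1 of 12 tested genes higher in each region 1 h after the last injection. That is 16.7% of the list, against 9.65% of all genes. Jun read 8.52, 8.20 and 8.42 in the HIP and 7.14, 7.37 and 7.02 in the NAc, a difference of 1.21 ± 0.14 (adjusted p = 0.0109) that was not called without pool 1. Homer1 differed by -0.71 ± 0.09 (adjusted p = 0.0169) and was not called without pool 1, without pool 2 or with median scaling. Fos, Arc and Egr1 were not called, with differences of 0.17 ± 0.08 (adjusted p = 0.274), 0.43 ± 0.10 (adjusted p = 0.077) and -0.59 ± 0.13 (adjusted p = 0.067). The adult neurogenesis list, drawn from genes of the dentate stem cell niche, had 10 tested genes. Of these, 0 were higher in the HIP and 2 higher in the NAc, 20% of the list against 9.65% of all genes. Sox11 read 8.55, 8.28 and 8.54 in the HIP and 9.30, 9.35 and 9.27 in the NAc, which is -0.85 ± 0.09 (adjusted p = 0.0108), and Dcx (doublecortin) read 7.02, 7.02 and 7.10 in the HIP and 7.43, 7.51 and 7.42 in the NAc, a difference of -0.40 ± 0.07 (adjusted p = 0.0363). Both were lower on every HIP array than on any NAc array, and neither was called without pool 1 or pool 2.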

How the data were processed

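The authors deposited linear intensities for 45281 probes per array, neither background subtracted nor normalized, and a detection p-value beside each. Their own quantile normalization and baseline step in GeneSpring are not part of these values. Quantile normalization (limma 3.58.1 in R 4.3.3) ran over 27 arrays, those of vehicle and of the inhibitors SAHA and Cpd-60, before a floor of 1 and log2 transformation. Testing required a detection p of 0.2 or less on all 3 HIP or all 3 NAc arrays. The 6 vehicle arrays were fitted with region and pool as fixed terms, empirical Bayes moderation and Benjamini-Hochberg adjustment over all 21629 probes. Pools pair the arrays because the labels name the same mice. Deviations of same-numbered arrays correlated at -0.25, -0.24 and -0.46. Exact tests on 3 pools cannot pass 0.05, since 3 against 3 gives 0.1 at best and 3 sign flips 0.25. A gene is given by its brightest tested probe, and 22039 of 30869 array symbols matched RefSeq symbols or synonyms. The genes named are the 15 largest called differences in each direction without overlap between regions, and list members. A probe undetected on all arrays of a region has only a bound there. "At least N-fold" sets the mean of the brighter region against the mean over the dimmer arrays of the higher of the probe's own value and the lowest detected signal. Members and lists were chosen with earlier results of these data known. The fit was tested on simulated data that held no BeadChip effect and no negative correlation between arrays of a pool. Promoter sequences are from RefSeq. Some genes are not reported here. Alternatives were no pool block, other normalizations (6 or 36 arrays, neqc with offset 16, median scaling), other filters, the BeadChip as a random block, all 24 HIP and NAc arrays, and each pool left out. The array number limits precision.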

Additional observations from a re-analysis of the deposited data

How the results depend on the processing

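Without the pool as a block (no pairing) the calls were 3560, with 1619 higher in the HIP and 1941 in the NAc, and 1889 of the 1902 were called there with the same sign. Median scaling in place of quantile normalization shifted the median of all probes to -0.108 and left 1014 calls, 510 toward the HIP and 504 toward the NAc. With neqc, which subtracts background, the count at 2-fold was 1157, with 538 and 619 by direction. Leaving out 1 pool gave between 150 and 7701 calls, 73 to 3788 toward the HIP and 77 to 3913 toward the NAc, and at 2-fold between 150 and 684, 73 to 422 and 77 to 262, while the list genes called were 41 to 202 against 124 with all pools. The lowest of these counts came without pool 2 and the highest without pool 3, with 1 residual degree of freedom in each, and the cause was not tested. Each BeadChip held 1 region and each region lay on 2, so no value within a BeadChip can be given. As a random block in place of the pool, with a correlation of 0.385, it gave 2392 calls. Normalizing the 6 arrays alone or all 36, filtering at a detection p of 0.01 and dropping the filter gave 1900 to 2132 calls. All 24 HIP and NAc arrays with the pool as a random block gave 2804.

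The 33 leading and marker genes kept their direction in each alternative and their call in all but the fit without pool 2, where 4 were not called. The other 99 called list genes kept their direction throughout, but 59 were not called without pool 1, 80 without pool 2, 0 without pool 3 and 28 with median scaling. Without pool 3 each region lay on 1 BeadChip, so calls kept there do not cover the spread between BeadChips of a region. Among list genes that were not called, Ntsr2 alone was called with the opposite sign, without pool 3. Of these genes Prlr alone lost its call without the block. Genes undetected on all arrays of a region have only a bound there.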
